A study of Mus musculus with 26 samples.

Results

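The genes described here are 5 transcription regulators of the supporting cells of the gonad: the SoxE genes Sox9, Sox8 and Sox10, together with Dmrt1 and Nr0b1. They were chosen by name and matched by gene symbol and identifier, and all 5 of the 57186 genes in the table of all deletions passed the filter on low counts, as did 22941 genes in total. RNA was sequenced from mouse XY gonads at E13.5, in 26 samples. There were 3 samples of wild type (WT). The Fgf9 deletions had 3 samples of Δ306, 4 of Δ104, 6 of Δ93 and 6 of Δ225, and 4 samples came from gonads with Meis1 knocked out (KO). The labels name the genotypes but not the strain, the litters, the zygosity or the boundaries of the deletions. Gonads were dissected away from the mesonephros and frozen, and no agent was applied.

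SOX9 is switched on in the supporting cells of the XY gonad downstream of SRY and directs them to become Sertoli cells, and FGF9 signalling is known to help maintain its expression there. SOX8 and SOX10 carry a DNA-binding HMG box closely related to that of SOX9 and can act on shared targets. DMRT1 is a DM-domain factor of Sertoli cells and germ cells that helps to keep the testis programme in place. NR0B1, also called DAX1, is an X-linked orphan nuclear receptor that represses transcription driven by NR5A1, and it is made in supporting cells of both sexes, with expression known to persist in the fetal ovary.

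Total counts per library, in units of 1e6, were 11.6 to 53.4 in the table of all deletions (median 36.7) and 35.5 to 51.7 in the Meis1 table. Fgf9 was 9.21, 9.55 and 9.85 CPM (the count per 1e6 counts of a library) in WT, 2.17 to 2.94 in Δ306 and 2.30 to 4.75 in Δ93. It was 2.72 to 6.98 in Δ104 and 3.69 to 16.5 in Δ225, so it did not overlap WT in Δ306, Δ93 or Δ104 and did overlap in Δ225. Meis1 was 0.201 to 0.695 CPM in the Meis1 KO libraries and 62.1 to 108.9 in WT. The summed CPM of the Y-linked genes Ddx3y, Uty, Kdm5d and Eif2s3y ran from 31.2 to 77.2 in WT and was under 10% of the WT mean in 1 of 3 Δ306 libraries, 1 of 6 Δ225, 1 of 4 Δ104, 5 of 6 Δ93 and 1 of 4 Meis1 KO libraries. These libraries stand apart from their XY label in this respect, and results are given with and without them where at least 2 libraries of a group were left. The other libraries were mostly below WT too. The highest sum was 11.7 CPM in Δ306, 20.5 in Δ225 and 6.60 in Δ93. In Meis1 KO it was 15.8, against at least 33.3 in WT of that table. In Δ104 only library 4, at 36.2, was within the WT range. Leaving out the lowest libraries therefore does not remove the Y-linked difference from WT. Xist was at most 6.42 CPM in any library. The submitters' processing notes differ between the WT and Δ306 samples and the other groups. Any difference between the deposits therefore cannot be told apart from genotype for Δ225, Δ104, Δ93 and Meis1 KO against WT. The same holds for Δ225, Δ104 and Δ93 against Δ306. All comparisons with WT share the same 3 WT libraries.

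The related sequence of the SoxE genes matters here because reads are assigned to genes by sequence. A stretch of 180 coding bases from each HMG box is shown, taken from GENCODE M21 transcripts (GRCm38). Capitals mark bases that differ from Sox9, and the windows begin at coding base 298 in Sox9, 280 in Sox8 and 295 in Sox10.
Sox9: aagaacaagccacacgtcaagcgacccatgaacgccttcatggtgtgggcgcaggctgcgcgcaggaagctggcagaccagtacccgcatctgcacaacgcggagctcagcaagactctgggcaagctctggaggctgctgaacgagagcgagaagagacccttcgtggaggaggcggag
Sox8: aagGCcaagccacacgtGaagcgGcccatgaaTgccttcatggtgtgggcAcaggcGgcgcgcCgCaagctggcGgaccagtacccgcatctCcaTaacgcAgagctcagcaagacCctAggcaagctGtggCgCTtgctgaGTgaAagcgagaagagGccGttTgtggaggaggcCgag
Sox10: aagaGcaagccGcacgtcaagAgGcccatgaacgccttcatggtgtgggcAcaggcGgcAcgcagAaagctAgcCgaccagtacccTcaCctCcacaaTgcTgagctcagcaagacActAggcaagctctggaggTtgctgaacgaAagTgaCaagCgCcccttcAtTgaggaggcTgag
Sox8 and Sox10 each matched Sox9 at 154 of the 180 bases (85.6%), and they matched each other at 149 (82.8%). Over the whole transcripts the longest shared run was 44 bases, between Sox9 and Sox10. No run of 50 bases was shared by any pair.

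The genes lie on different chromosomes of GRCm38, all annotated as protein coding in GENCODE M21. Sox9 is at chr11:112782224-112787760 on the plus strand, Sox8 at chr17:25565892-25570686 on the minus strand and Sox10 at chr15:79154908-79165240 on the minus strand. Dmrt1 is at chr19:25505618-25604329 and Nr0b1 at chrX:86191764-86195947, both on the plus strand. Sox8 shares 329 exonic bases (10.6% of its exonic length) with the antisense RNA gene Cerox1. Cerox1 was at 8.21 to 11 CPM in WT and between 3.19 and 8.80 CPM in the deletion libraries. The library kit marks strand, but the strand setting used in counting is not given in the sources used here. Whether the shared bases add reads to the Sox8 counts or take them away was therefore not tested.

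RefSeq promoter sequences (GRCm38.p6) were matched for 2 of the 5 genes, Nr0b1 and Sox8, which are the genes that changed in Δ93. They are shown 5′ to 3′ up to the annotated start, with searched motifs in capitals. The Nr0b1 window is chrX:86191525-86191763 (plus strand) and the Sox8 window is chr17:25570687-25570936 (minus strand).
Nr0b1: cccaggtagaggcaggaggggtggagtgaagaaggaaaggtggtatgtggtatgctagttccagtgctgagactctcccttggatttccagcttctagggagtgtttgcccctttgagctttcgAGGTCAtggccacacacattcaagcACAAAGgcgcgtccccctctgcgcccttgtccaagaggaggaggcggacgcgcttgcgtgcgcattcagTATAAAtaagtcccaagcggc
Sox8: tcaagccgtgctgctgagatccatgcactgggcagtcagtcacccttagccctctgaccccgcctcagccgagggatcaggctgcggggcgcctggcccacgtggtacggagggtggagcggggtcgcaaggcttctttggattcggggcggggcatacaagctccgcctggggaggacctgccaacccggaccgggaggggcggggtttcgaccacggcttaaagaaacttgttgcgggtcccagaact
Motifs were searched on both strands: AGGTCA as a core bound by NR5A-type receptors, ACAAT as a short SOX-type core, ACAAAG as a longer SOX-type core, TATAAA as the TATA box and AGATAA as a GATA-type site. The Nr0b1 window held AGGTCA once, followed by 1 copy of ACAAAG and, nearest the start, 1 copy of TATAAA, all on the forward strand and with no overlap. The Sox8 window held none of the motifs. Among 32851 promoter windows of 250 bases, AGGTCA was found in 14%, ACAAT in 27.7%, ACAAAG in 16.5%, TATAAA in 12.4% and AGATAA in 9.99%. A match describes letters in the window and not a bound site.

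The levels of the genes differed in WT gonads. Per kilobase of exon, Sox9 was at 24.5 ± 0.673 CPM (SD, n = 3), Dmrt1 at 21.97 ± 8.83, Sox10 at 12.3 ± 1.08, Sox8 at 11.4 ± 0.318 and Nr0b1 at 7.16 ± 0.556. Dmrt1 was the most spread and overlapped Sox9, Sox10 and no other, Sox10 overlapped Sox8, and Nr0b1 lay below all others. In Δ93 the order by mean was Dmrt1 (18.7 ± 7.53 CPM per kilobase, n = 6), Nr0b1 (16.1 ± 5.20), Sox9 (7.90 ± 6.38), Sox10 (1.97 ± 2.07) and Sox8 (1.80 ± 1.60). Sox9 overlapped each of the other 4 genes there, Dmrt1 overlapped Nr0b1, and Sox10 overlapped Sox8, while Dmrt1 and Nr0b1 lay above Sox10 and Sox8.

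**Figure D1:**
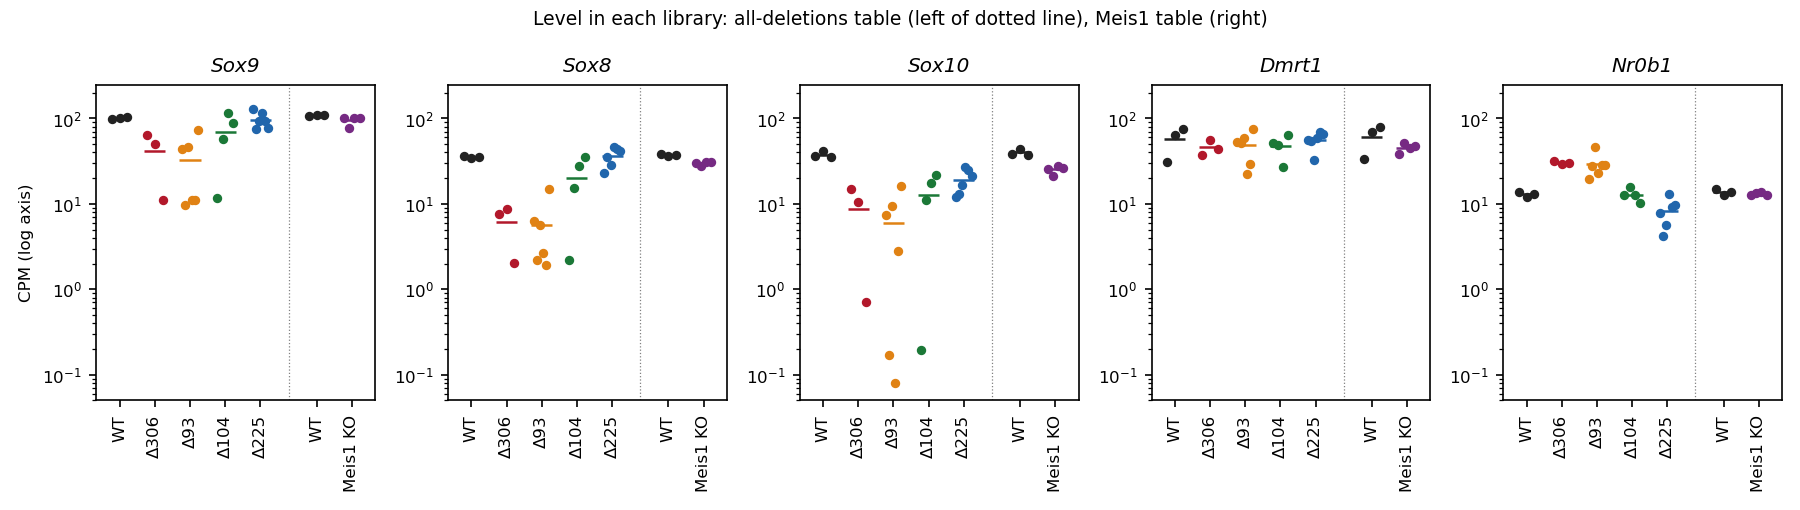
CPM of each gene (log axis) in every library, by group, with horizontal bars at the group mean. The WT libraries of Sox9 sit between 98.7 and 104.3 CPM in the table of all deletions, while Δ306, Δ93 and Δ104 each hold at least 1 library near 11 CPM, and Nr0b1 is above WT in all Δ306 and Δ93 libraries.

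Sox9, the factor that directs Sertoli differentiation, was lower than WT in every Δ306 and Δ93 library, but by very unequal amounts. It was 98.7, 100.9 and 104.3 CPM in WT. The 3 Δ306 libraries had 64.0, 50.5 and 11.2 CPM, and the Δ93 libraries ran from 9.69 to 74.1 with a median of 27.5. Δ306 and Δ93 did not overlap WT, and within Δ93 the libraries 2, 4 and 5 were at 9.69 to 11.2 CPM while libraries 1, 3 and 6 were at 43.9 to 74.1. The Δ104 libraries had 11.6, 57.8, 116.3 and 88.9 CPM, and the Δ225 libraries 75.7 to 128.4, and both groups overlapped WT. On the log2 scale the fitted difference from WT was −1.27 in Δ306 (SE 0.73, adjusted p 0.327), −1.63 in Δ93 (SE 0.60, adjusted p 0.0742), −0.56 in Δ104 (SE 0.67, adjusted p 0.690) and −0.06 in Δ225 (SE 0.62, adjusted p 0.967), by edgeR's quasi-likelihood test with Benjamini-Hochberg adjustment. None passed an adjusted p of 0.05. Sox9 in Δ93 was called by DESeq2 (adjusted p 0.0443) and by edgeR without Δ93 library 6, the library with the highest Sox9 of its group (−2.04, adjusted p 0.0263). The 95% interval ran from −2.80 to 0.25 in Δ306 and from −2.89 to −0.38 in Δ93. In bulk tissue, fewer Sertoli cells and less RNA per cell cannot be told apart. The share of all tested genes that passed was 6.43% in Δ306, 14.1% in Δ93, 0.061% in Δ104 and 0.209% in Δ225, each against WT, and those shares apply to the following genes as well.

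Sox8, which acts beside Sox9 in the testis, was at a smaller share of its WT level than Sox9 in Δ306 and Δ93. It was 36.6, 34.7 and 35.5 CPM in WT and 7.59, 8.80 and 2.01 in Δ306. In Δ93 it was 1.93 to 15.1 CPM with a median of 4.16, and in Δ104 it was 2.22, 15.2, 28.02 and 35.8. The Δ225 libraries had 22.9 to 46.1 CPM and surrounded WT. Sox8 fell in Δ93, by 2.66 on the log2 scale (SE 0.61, adjusted p 0.00670, edgeR), to a mean of 15.8% of WT, and all 6 libraries lay below all 3 WT libraries. This call held under all 15 alternatives tried. In Δ306 the difference was −2.54 (SE 0.77, adjusted p 0.0521), with all 3 libraries below WT and a mean of 17.2% of the WT level. DESeq2 (adjusted p 0.00690), RLE scaling in edgeR (0.0496), the fit of Δ306 and WT alone (0.0131) and the first deposited count table (0.0134) each called it. DESeq2, the fit of Δ306 and WT alone and the first count table called 2707, 3429 and 3101 genes of any kind, against 1474 in the main fit. The differences were −0.81 in Δ104 (SE 0.67, adjusted p 0.548) and 0.03 in Δ225 (SE 0.63, adjusted p 0.984).

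Sox10, best known from neural crest and glia and also made in fetal Sertoli cells, showed the widest spread. It was 36.0, 41.2 and 35.1 CPM in WT, 14.9, 10.5 and 0.706 in Δ306, and 0.0796 to 16.3 in Δ93 with a median of 5.12. In Δ104 it was 0.194, 11.01, 17.3 and 21.6 CPM, and in Δ225 it ran from 12.2 to 26.9 with a median of 18.7. Libraries 1 to 3 of Δ225 had 12.2 to 16.4 CPM and libraries 4 to 6 had 20.9 to 26.9. Every library of the 4 deletions lay below every WT library, Δ225 included, where Sox9 and Sox8 overlapped WT. The share of all genes that lie apart from WT in this way was not computed, here or for the other genes. No Sox10 difference from WT passed: −2.11 in Δ306 (SE 1.25, adjusted p 0.346), −2.64 in Δ93 (SE 1.01, adjusted p 0.0841), −1.58 in Δ104 (SE 1.12, adjusted p 0.483) and −0.96 in Δ225 (SE 1.01, adjusted p 0.633), by edgeR. Without Δ93 library 6 the Sox10 difference in Δ93 was called (−3.23, adjusted p 0.0451, edgeR). The lowest libraries rest on few reads, with 3 and 8 Sox10 counts in Δ93 libraries 4 and 2 and 7 in Δ104 library 1.

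The low SoxE values came from the same libraries. Δ306 library 3, Δ104 library 1 and Δ93 libraries 2, 4 and 5 had Sox9 at 9.69 to 11.6 CPM, Sox8 at 1.93 to 2.65 CPM and Sox10 at 0.0796 to 2.78 CPM. Within Δ93, library 6 was the highest for Sox9, Sox8 and Sox10. Across the 22 libraries, log2 CPM of Sox9 had Pearson r of 0.938 with Sox8 and 0.928 with Sox10, and Sox8 had 0.864 with Sox10. Among 16106 other genes ordered by likeness to Sox9, Sox8 ranked 40 and Sox10 ranked 57. These values describe libraries that share groups and carry no test.

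Dmrt1, which Sertoli cells and germ cells both make, did not follow the SoxE genes. It was 31.2, 64.7 and 75.0 CPM in WT, 37.7, 56.5 and 43.5 in Δ306, and 22.5 to 75.4 in Δ93 with a median of 52.5. The Δ104 libraries had 52.3, 48.3, 27.3 and 64.2 CPM and the Δ225 libraries 32.7 to 69.5. Within Δ225, libraries 1 to 3 had 32.7 to 55.9 CPM and libraries 4 to 6 had 59.2 to 69.5. All 4 deletions overlapped WT. The log2 difference from WT was −0.31 in Δ306 (SE 0.39, adjusted p 0.688), −0.23 in Δ93 (SE 0.33, adjusted p 0.697), −0.25 in Δ104 (SE 0.36, adjusted p 0.752) and −0.02 in Δ225 (SE 0.33, adjusted p 0.985), by edgeR. The 95% interval in Δ93 ran from −0.92 to 0.46. Germ cell content differed among the WT libraries: Ddx4, a germ cell RNA helicase, was 4.27 CPM in WT library 1, which had the lowest Dmrt1 in WT, and 81.3 and 138.6 CPM in the others. Its part in the Dmrt1 values was not tested. Across the 22 libraries Dmrt1 had r of 0.350 with Sox9, 0.364 with Sox8 and 0.376 with Sox10.

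Nr0b1 moved the other way from the SoxE genes in Δ306 and Δ93. It was 13.9, 11.9 and 13.0 CPM in WT and 31.9, 29.1 and 29.8 in Δ306. In Δ93 it ran from 19.6 to 46.8 with a median of 28.05. Both groups lay wholly above WT, and Δ306 was tight where its Sox9 values were scattered. Nr0b1 rose in Δ306 by 1.23 on the log2 scale (2.34-fold, SE 0.32, adjusted p 0.0276) and in Δ93 by 1.17 (2.24-fold, SE 0.29, adjusted p 0.0105), by edgeR. The Δ306 call was lost without any 1 of the 6 libraries of the comparison (adjusted p 0.0710 to 0.131), with log2 values of 1.13 to 1.26. Without Δ306 library 3, the library low in Y-linked RNA, together with the other such libraries, it was 1.19 (adjusted p 0.159). The Δ93 call was lost without WT library 2 (adjusted p 0.0722) or WT library 3 (0.0549). In Δ104 Nr0b1 was 12.8, 15.8, 12.7 and 10.2 CPM, and its difference from WT was −0.01 (SE 0.30, adjusted p 0.992). In Δ225 it was 4.25 to 13.1 CPM with a median of 8.52, and the difference was −0.63 (SE 0.27, adjusted p 0.275), with 5 of 6 libraries below the lowest WT library. Libraries 1 to 3 of Δ225 had 4.25 to 7.80 CPM and libraries 4 to 6 had 9.23 to 13.1.

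**Figure D2:**
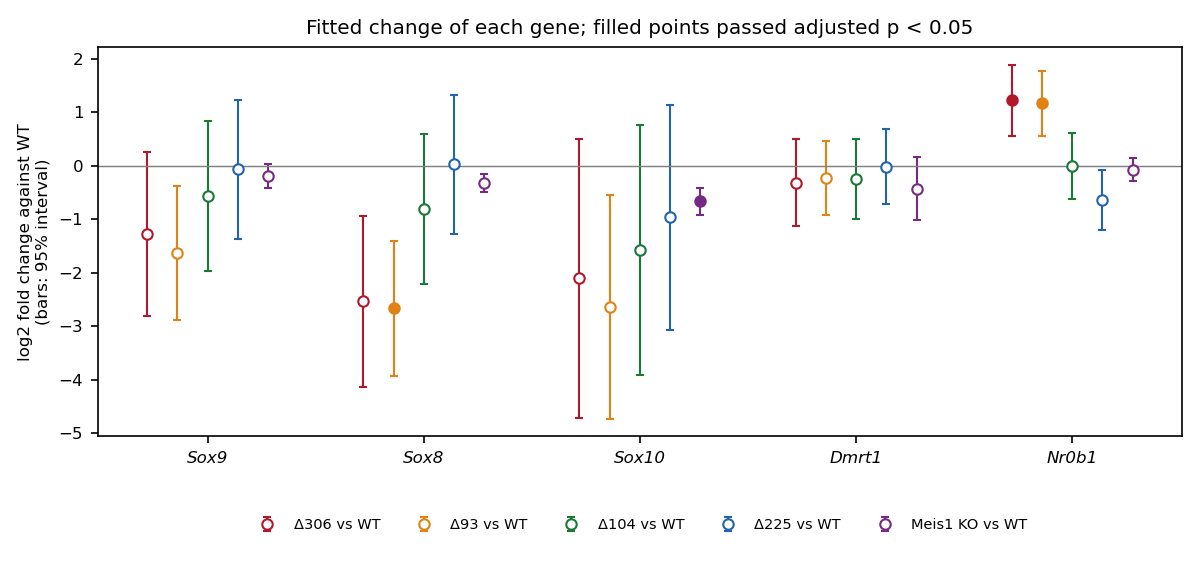
Fitted log2 fold change of each gene against WT (vertical axis) for the 4 deletions and Meis1 KO, with bars for the 95% interval and filled points where edgeR's adjusted p was under 0.05. Sox8 in Δ93, Nr0b1 in Δ306 and Δ93, and Sox10 in Meis1 KO are filled, and the Dmrt1 intervals all include 0.

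Nr0b1 and Sox9 did not mirror each other library by library. The Δ104 library with Sox9 at 11.6 CPM had Nr0b1 at 12.8 CPM, inside the WT range, whereas the Δ93 library with the highest Sox9 (74.1 CPM) had Nr0b1 at 28.4. Across the 22 libraries Nr0b1 had r of −0.528 with Sox9, −0.687 with Sox8, −0.376 with Sox10 and −0.128 with Dmrt1.

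Comparing the deletions with one another asks how far each factor falls in each. Against Δ225, Δ93 was lower in Sox9 and Sox8 and higher in Nr0b1. Written as Δ225 minus Δ93 on the log2 scale, Sox9 differed by 1.57 (SE 0.52, adjusted p 0.0376), Sox8 by 2.69 (SE 0.55, adjusted p 0.00163) and Nr0b1 by −1.80 (SE 0.23, adjusted p 4.08e-05), with no overlap between the groups for any of them (edgeR, with 20.8% of all genes called). The Sox8 and Nr0b1 calls held under all 18 alternatives, and the Sox9 call was lost without Δ225 library 1, 3 or 4 or Δ93 library 2, 4 or 5 (adjusted p 0.0517 to 0.0826). Sox10 (1.67, SE 0.88, adjusted p 0.180) and Dmrt1 (0.22, SE 0.27, adjusted p 0.598) did not pass.

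Δ225 and Δ306 differed in Sox8 by 2.56 (SE 0.72, adjusted p 0.0233) and in Nr0b1 by −1.86 (SE 0.26, adjusted p 0.000401), with no overlap, where 13.2% of all genes passed by edgeR. The processing notes also differ between these groups. The Sox8 call was lost without any 1 of the 3 Δ306 libraries (adjusted p 0.0539 to 0.130) and without the libraries low in Y-linked RNA (2.08, adjusted p 0.178). The Nr0b1 call held under all 16 alternatives. Sox9 differed by 1.21 (SE 0.66, adjusted p 0.242), Sox10 by 1.14 (SE 1.103, adjusted p 0.536) and Dmrt1 by 0.30 (SE 0.34, adjusted p 0.613).

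No member passed in the comparisons among Δ306, Δ104 and Δ93 or between Δ225 and Δ104, where few genes of any kind did: 0.645% for Δ225 against Δ104, 0.0654% for Δ104 against Δ306, 0.0785% for Δ93 against Δ306 and 0.0523% for Δ93 against Δ104. Nr0b1 was higher in all Δ306 and all Δ93 libraries than in any Δ104 library. The fitted log2 differences were −1.23 for Δ104 minus Δ306 (SE 0.29, adjusted p 0.109) and 1.18 for Δ93 minus Δ104 (SE 0.26, adjusted p 0.0768), by edgeR. DESeq2 called both (adjusted p 0.00819 and 0.00224), as it did Sox8 for Δ93 minus Δ104 (−1.84, adjusted p 0.0433, against 0.168 by edgeR). DESeq2 also called far more genes of any kind: 389 for Δ104 against Δ306 and 546 for Δ93 against Δ104, where edgeR called 15 and 12. Without Δ104 library 1, edgeR also called Sox8 (−2.21, adjusted p 0.0177) and Nr0b1 (1.197, adjusted p 0.0286) for Δ93 minus Δ104, and without Δ93 library 1 it called Nr0b1 (1.29, adjusted p 0.0441). These 2 fits called 791 and 707 genes of any kind for Δ93 against Δ104. Δ93 and Δ306 were close in Sox8 (−0.13, 95% interval −1.46 to 1.201) and in Nr0b1 (−0.06, −0.63 to 0.51), and these intervals leave room for differences of over 1 log2 unit in Sox8.

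The unequal reduction of the factors was measured within each library as the log2 ratio of each gene to Sox9. All ratios share Sox9, so a ratio can change through Sox9 alone. The same ratio was not computed over all genes, so no share of genes stands beside these results. In WT the Sox8 ratio was −1.51 ± 0.069 (SD, n = 3), the Sox10 ratio −1.44 ± 0.14, the Dmrt1 ratio −0.92 ± 0.64 and the Nr0b1 ratio −2.97 ± 0.13. In Δ93 they were −2.46 ± 0.39 (n = 6), −3.45 ± 1.90, 0.91 ± 0.89 and 0.23 ± 1.28, and none of the 4 overlapped WT. Thus Sox8 was lower relative to Sox9 in Δ93 by 0.95, Sox10 was lower by a difference of −2.02, and Dmrt1 and Nr0b1 were higher by 1.83 and 3.20, each at p 0.0238, the smallest that a two-sided exact permutation test of 6 against 3 allows (adjusted over 44 ratio tests, 0.116). In Δ306 the ratios differed from WT by −1.16 for Sox8, −1.31 for Sox10, 1.37 for Dmrt1 and 2.84 for Nr0b1. With 3 libraries against 3 the exact permutation test cannot go below 0.1, which Sox8, Sox10 and Nr0b1 reached.

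The ratios of 2 genes passed the adjustment over all 44 tests, both between Δ225 and Δ93. For Δ225 minus Δ93 the Nr0b1 ratio differed by −3.83 (exact permutation p 0.00217, adjusted p 0.0476) and the Dmrt1 ratio by −1.70 (exact permutation p 0.00217, adjusted p 0.0476), with no overlap between the 6 libraries of each group. Both calls were lost without any 1 of the 12 libraries (adjusted p 0.0635 to 0.0952), where the exact permutation p was 0.00433, the smallest that 5 against 6 allows. By edgeR, Sox9 itself differed by 1.57 between Δ225 and Δ93 (adjusted p 0.0376) and Dmrt1 by 0.22 (adjusted p 0.598). The Dmrt1 ratio result therefore mainly carries the Sox9 difference and is no separate result about Dmrt1. The Sox8 ratio differed by 1.03 there (exact permutation p 0.0108, adjusted p 0.116) with some overlap, and the Sox10 ratio by 1.08 (exact permutation p 0.277, adjusted p 0.452). In Δ225 against WT the Sox10 ratio stood apart: it was −2.37 ± 0.57 (n = 6), below all WT libraries (difference −0.94, exact permutation p 0.0238, adjusted p 0.116). The Sox8 ratio there differed by 0.08 (exact permutation p 0.762, adjusted p 0.798). In all, 11 of the 44 ratio tests had an unadjusted p under 0.05.

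**Figure D3:**
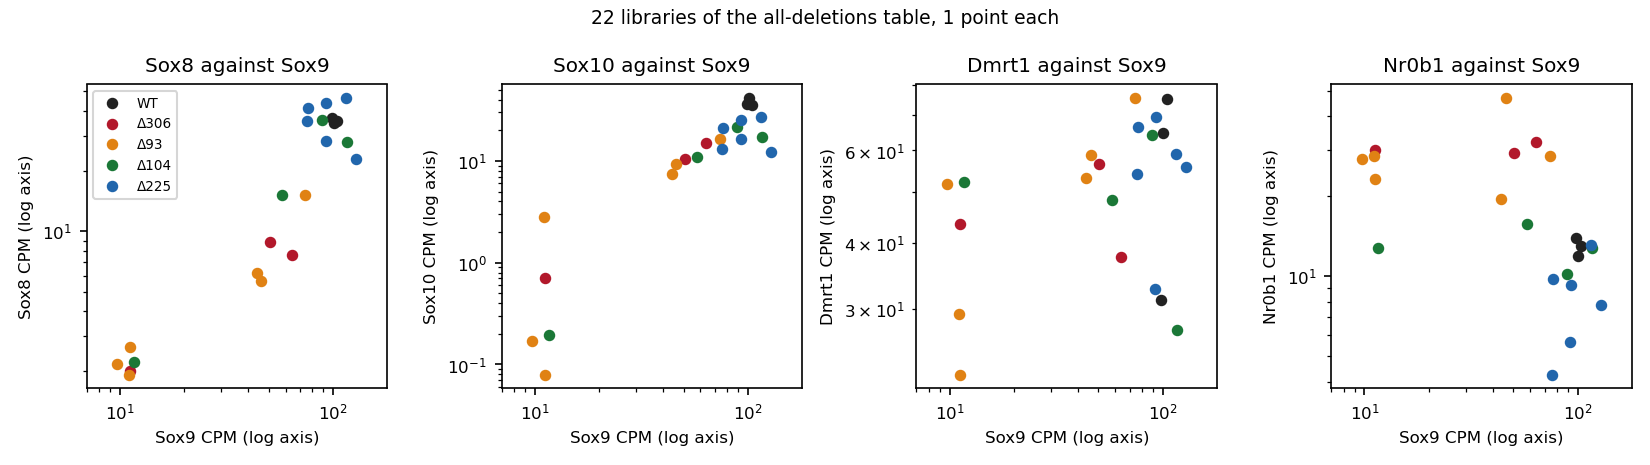
CPM of Sox8, Sox10, Dmrt1 and Nr0b1 (vertical, log axis) against CPM of Sox9 (horizontal, log axis) for the 22 libraries of the table of all deletions, coloured by group. Sox8 and Sox10 descend with Sox9 (r of 0.938 and 0.928 on log2 CPM), Dmrt1 stays between 22.5 and 75.4 CPM at every Sox9 level, and the Δ306 and Δ93 libraries lie above the others for Nr0b1.

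The Meis1 KO gonads, which lack the homeobox factor MEIS1, had smaller differences. Sox10 was 25.6, 21.4, 27.8 and 26.3 CPM in the KO libraries and 38.7, 44.3 and 37.2 in WT of the same table, with no overlap. It fell by 0.66 on the log2 scale (SE 0.11, adjusted p 0.0369, edgeR, with 1.8% of 16791 genes called), to 63.1% of WT. This call was lost without any 1 of the 4 KO libraries or without WT library 2 or 3 (adjusted p 0.0834 to 0.113). Sox8 was 30.1, 27.98, 30.9 and 30.8 CPM against 38.7, 36.7 and 36.9, again with no overlap, but its difference of −0.32 did not pass (SE 0.07, adjusted p 0.0660). DESeq2 (adjusted p 0.00116) and the fit without WT library 1 (0.0345) called it. Those fits called 1439 and 2204 genes of any kind, against 303 in the main fit. Sox9 was 101.4, 78.1, 100.1 and 101.1 CPM against 106.2, 108.7 and 110.9, a difference of −0.19 (SE 0.10, adjusted p 0.345). Dmrt1 differed by −0.43 (SE 0.26, adjusted p 0.417) and was called without WT library 1 (−0.72, adjusted p 0.0116), the library low in Ddx4. Nr0b1 was 12.7 to 13.7 CPM in KO and 12.8 to 14.9 in WT (−0.07, SE 0.09, adjusted p 0.744). The Sox10 ratio to Sox9 was −1.91 ± 0.064 (n = 4) in KO and −1.44 ± 0.14 (n = 3) in WT, and the exact permutation p of 0.0571 is the smallest that 4 against 3 allows (adjusted p 0.168).

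The comparisons of Δ225 and of Meis1 KO with WT use the same WT libraries, fitted in separate tables. Side by side, Sox10 was at 51.1% of the WT mean in Δ225 and 63.1% in Meis1 KO, Sox8 at 102% and 79.9%, and Sox9 at 95.7% and 87.7%. In Δ104 these shares were 33.5%, 57.2% and 67.8%, in Δ306 23.3%, 17.2% and 41.4%, and in Δ93 16.1%, 15.8% and 32.2%. Nr0b1 was at 234% of WT in Δ306, 224% in Δ93, 99.4% in Δ104, 64.1% in Δ225 and 95.1% in Meis1 KO.

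Within the 2 groups of 6 libraries, each gene was set against Fgf9 and against Foxl2, the granulosa cell factor that opposes SOX9, in 20 relations of log2 CPM. None passed adjustment over the 20. In Δ93, Foxl2 ran from 42.5 to 140.6 CPM, and its Pearson r was −0.907 with Sox9 (permutation p 0.0639, adjusted 0.347; Spearman rho −0.657, permutation p 0.175) and −0.870 with Sox8 (permutation p 0.0417, adjusted 0.347; rho −0.886, permutation p 0.0333, adjusted 0.5). Without the 2 libraries farthest from the Foxl2 median, r was −0.978 and −0.962. For Nr0b1 against Foxl2 in Δ93, r was 0.162 (permutation p 0.853, adjusted 0.906; rho 0.314, permutation p 0.564), and it was −0.951 without those 2 libraries, so the sign of that value rests on them. In Δ225, Dmrt1 had r of −0.955 with Fgf9 (permutation p 0.0472, adjusted 0.347; rho −0.714, permutation p 0.136), and −0.521 without the 2 farthest libraries. Sox9 had r of 0.198 with Fgf9 in Δ225 (permutation p 0.681; rho 0.371, permutation p 0.497) and −0.110 in Δ93 (permutation p 0.928; rho 0.429, permutation p 0.419).

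The genes with the most similar pattern to each member over the 22 libraries were found by Pearson r of log2 CPM among genes at a mean of at least 1 CPM. They were Tox2 (0.980), Dhh (0.980), Dtna (0.978), Kcns2 (0.976) and Hsd17b3 (0.9748) for Sox9. For Sox8 they were Rassf5 (0.986), Dtx4 (0.984), Serpine2 (0.981), Defb19 (0.979) and Cbln4 (0.979), and for Sox10 they were Map3k21 (0.950), Kcns2 (0.947), Dhh (0.946), Cst9 (0.944) and Cnga1 (0.943). Dhh encodes the desert hedgehog ligand of Sertoli cells. For Dmrt1 they were Utf1 (0.913), Nol9 (0.893), Kpna2 (0.892), Ash2l (0.886) and Stip1 (0.885), where Utf1 is a factor of pluripotent and germ cells. For Nr0b1 they included Anxa4 (0.955), Tpst2 (0.925), Acot2 (0.915) and Rassf10 (0.911).

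Genes known to act with, before or after the members were counted in the same fits. Of 16 Sertoli targets and products, 10 fell in Δ93, 6 in Δ306 and 2 in Meis1 KO. The 10 and the 6 both include Fgf9, which the deletions are named for and which also served to check the labels. None passed in Δ104 or Δ225 by edgeR, where 3 and 0 had an unadjusted p under 0.05. Over all 22941 tested genes, 3610 and 3687 had such a p in Δ104 and Δ225. The median log2 difference of the 16 was −2.49 in Δ93 and −2.38 in Δ306, beside 0.06 and 0.08 over all genes. Hsd17b1, a steroid dehydrogenase, fell by 3.61 in Δ93 (SE 0.73, adjusted p 0.00320, edgeR) and Cbln4 fell by 3.37 (SE 0.63, adjusted p 0.00194). Mro, Vnn1, Clu and Fgf9 itself also fell in both. Amh, the anti-Müllerian hormone and a direct SOX9 target, differed by −3.98 in Δ93 (SE 1.47, adjusted p 0.0751) and −3.81 in Δ306 (SE 1.92, adjusted p 0.253).

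Of 12 ovarian antagonists, 9 rose and 1 fell in Δ93, 7 rose and 1 fell in Δ306, and 1 rose in Meis1 KO. None passed in Δ104 or Δ225 by edgeR, where 9 and 2 had an unadjusted p under 0.05, beside 3610 and 3687 of all 22941 genes. Foxl2 rose by 7.02 in Δ93 (SE 1.15, adjusted p 0.000992), by 6.22 in Δ306 (SE 1.14, adjusted p 0.00541) and by 2.90 in Meis1 KO (SE 0.19, adjusted p 0.000753), by edgeR. Fst, the activin antagonist follistatin, rose by 7.02 in Δ93 and 6.49 in Δ306, and Irx3, Runx1, Lhx2 and Rspo1 rose in both. The gene that fell was Esr2, an estrogen receptor, at −1.40 in Δ93 and −2.04 in Δ306. Esr2, Amh, Nr5a1, Sry and Nr0b2 were named after their values were seen.

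Of 12 partners and upstream factors, Emx2 rose in Δ306 (1.29, SE 0.34, adjusted p 0.0300) and Δ93 (1.44, SE 0.31, adjusted p 0.00499), Wt1 rose in Δ93 (0.59, SE 0.18, adjusted p 0.0341), and Gadd45g fell in Δ225 (−1.32, SE 0.25, adjusted p 0.0325), by edgeR. No other passed against WT, among them Nr5a1 at −1.15 in Δ306 (SE 0.37, adjusted p 0.0643). Sry was 0.233 to 0.327 CPM in WT, 1.31 to 3.82 in Δ306 and 0.0531 to 2.32 in Δ93, and its difference of 3.22 in Δ306 did not pass (SE 1.097, adjusted p 0.0819).

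The relatives of the members behaved unlike them in part. Of 14 other Sox genes tested, Sox13 fell in Δ306 (−0.998, SE 0.29, adjusted p 0.0461) and Δ93 (−0.90, SE 0.25, adjusted p 0.0187). In Δ93 Sox15 (−1.96) and Sox17 (−1.27) also fell and Sox30 rose (1.76), by edgeR. Of 7 other Dmrt genes and Nr0b2, the receptor closest to Nr0b1, Dmrta1 and Dmrta2 rose in Δ306 and Δ93, and none fell. Dmrtb1 was also called higher in both, and Dmrtc2 in Δ93. Neither passed the filter on low counts in the Meis1 table, which holds the same WT libraries, so their calls are not counted as rises. Dmrta2 rose by 3.33 in Δ93 (SE 0.62, adjusted p 0.00202) and Dmrta1 by 2.48 (SE 0.46, adjusted p 0.00192). Dmrtb1, a gene of germ cells, had at most 1 count in any WT library and at least 14 counts in each Δ93 library. It therefore passed the filter on low counts only through the groups where it is high. Its plotted fold change rests on WT counts near the floor and is no measure of size. Nr0b2 differed by −0.92 in Δ93 (SE 0.43, adjusted p 0.168), opposite in sign to Nr0b1. Dmrta1 also rose in Meis1 KO (0.73, SE 0.14, adjusted p 0.0475).

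**Figure D4:**
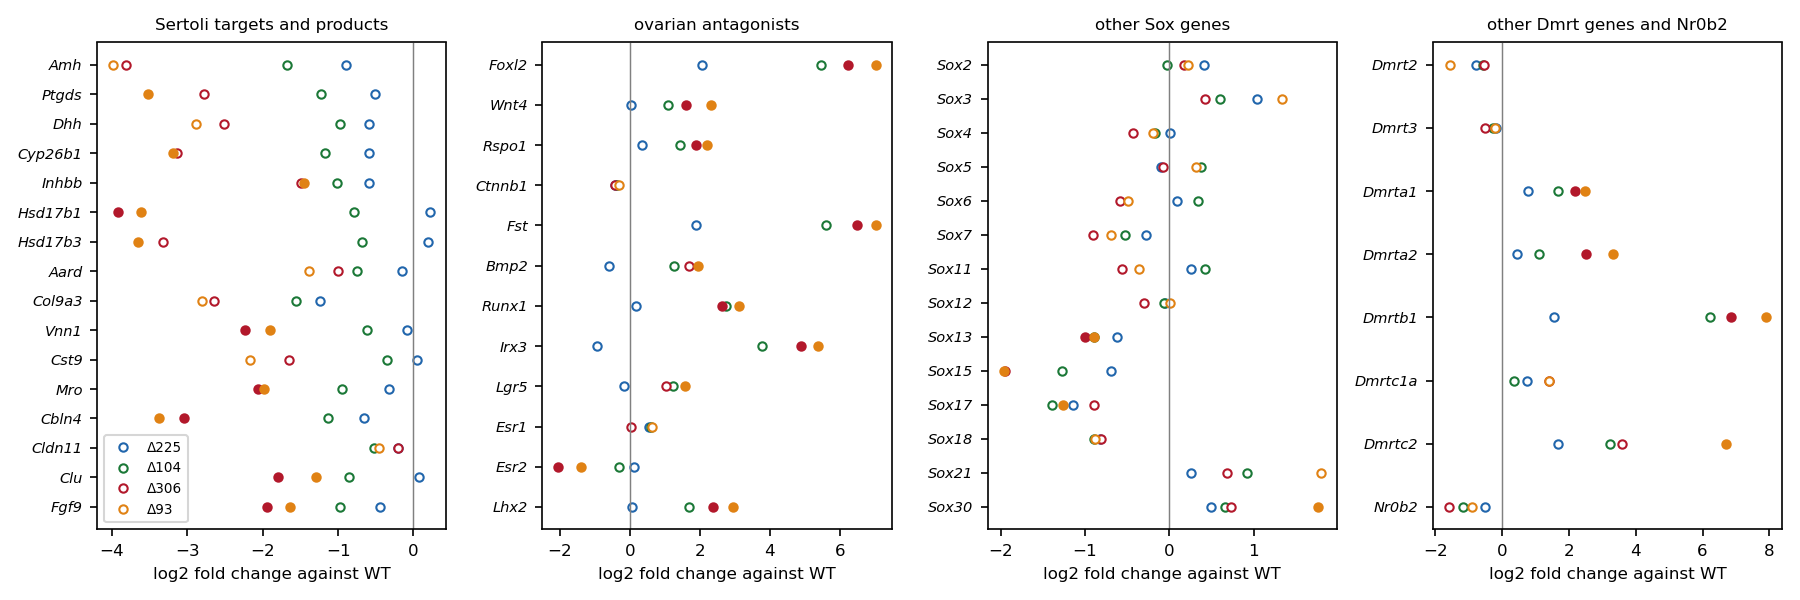
Log2 fold change against WT (horizontal axis) of each tested gene in the Sertoli, ovarian, other Sox and other Dmrt lists for the 4 deletions, filled where edgeR's adjusted p was under 0.05. Filled points are from Δ306 and Δ93 only, with 10 genes of the Sertoli list (Fgf9 among them) lower and 9 ovarian genes higher in Δ93.

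Markers of other cell types were measured beside the SoxE values. The 5 Sertoli markers other than the members summed to 1806 to 2260 CPM in WT, 59.9 to 458.4 in Δ306, 29.7 to 771.3 in Δ93, 15.2 to 1871 in Δ104 and 410.9 to 2080 in Δ225. In Δ225 the sum was 410.9 to 779.6 CPM in libraries 1 to 3 and 1651 to 2080 in libraries 4 to 6. By edgeR, 0 of these 5 were called in Δ306 (1 had an unadjusted p under 0.05) and 1, Ptgds, was called lower in Δ93 (3 had an unadjusted p under 0.05). Over all 22941 tested genes, 5033 in Δ306 and 6529 in Δ93 had such a p. The 5 pre-granulosa markers summed to 49.9 to 96.9 CPM in WT, 340.6 to 679.9 in Δ306, 404.4 to 1021 in Δ93, 58.8 to 645.7 in Δ104 and 56.2 to 97.3 in Δ225, and all 5 were called higher in Δ306 and Δ93. The 7 markers of neural crest and glia, the other known source of Sox10, summed to 48.6 to 70.5 CPM in WT, 23.9 to 48.9 in Δ306, 23.6 to 57.3 in Δ93, 24.0 to 55.7 in Δ104 and 51.3 to 86.6 in Δ225. Of these, Erbb3 was 32.1 to 58.4 CPM in WT and 5.09 to 40.5 in Δ93. The 5 germ cell markers summed to 16.1 to 555.9 CPM in WT and 529.7 to 891.3 in Δ93. Their sums were 331.9 to 673.8 in Δ306, 119.1 to 695.5 in Δ104 and 274.0 to 907.3 in Δ225. The WT value of 16.1 was from library 1. The 5 fetal Leydig markers, steroid-making cells that depend on Sertoli signals, summed to 901.9 to 1554 CPM in WT, 39.8 to 91.3 in Δ306 and 50.1 to 313.9 in Δ93, with 3 of 5 called lower in Δ306 and 4 of 5 in Δ93. The Leydig sum was 37.8 to 1629 in Δ104 and 452.4 to 3045 in Δ225, with none of the 5 called in either. The part of these cell types in the member values was not tested.

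Low Y-linked RNA did not go with low SoxE RNA in every library. Δ225 library 4, at 0.426% of the WT mean for the summed Y-linked genes, had Sox9 at 115.8 CPM, Sox8 at 46.1 and Sox10 at 26.9, the highest Sox8 and Sox10 of its group. Δ104 library 3, at 4.11%, had Sox9 at 116.3 CPM, and Δ104 library 1, at 11.1%, had 11.6. In Δ306, library 3 had both the lowest Y-linked sum (0.303% of WT) and the lowest Sox9, Sox8 and Sox10. The part of the Y-linked difference in the Δ93 results was not tested, because only library 1 was above 10% of WT.

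**Figure D5:**
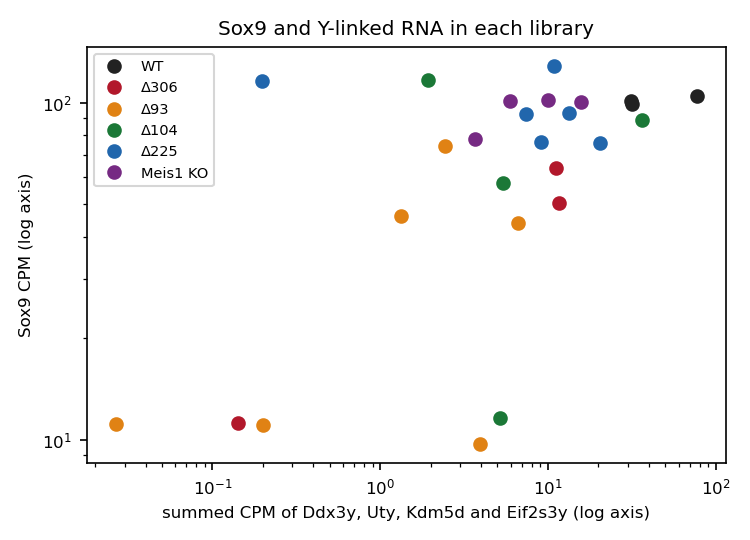
Sox9 CPM (vertical, log axis) against the summed CPM of 4 Y-linked genes (horizontal, log axis) in each of the 26 libraries, coloured by group. Libraries with Sox9 near 11 CPM and libraries with Sox9 near 116 CPM are both found among those with little Y-linked RNA.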

How the data were processed

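Gene counts deposited by the authors were used as given: per the submitters' processing notes reads were aligned to mm10 with STAR (2.7.10a for WT and Δ306, where featureCounts of Subread and DESeq2 are also named; STAR and DESeq2 with no version for the other groups). Strand setting and annotation are not given in the sources used here. Columns were matched to samples by genotype and replicate number in the labels. Whether the samples of a group came from separate litters is not given, so p-values measure the spread between these samples.

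From the counts, edgeR 4.0.16 (R 4.3.3) was run with its default filter on low counts and TMM scaling on all groups of a table together (22 libraries, 17 residual degrees of freedom; 7 libraries and 5 in the Meis1 table). The quasi-likelihood test was adjusted by Benjamini-Hochberg over all tested genes, with an adjusted p under 0.05 as a call. CPM values use the TMM-scaled library sizes, and ratios are differences of log2 CPM with a prior count of 2. Single values were compared with two-sided exact permutation tests. The script was tested on simulated data. Libraries held 11.6 to 53.4 (in units of 1e6) counts.

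Alternatives were DESeq2 1.42.0, RLE or no composition scaling, no filter, a prior count of 0.5, the 2 groups alone, the first deposited count table for WT and Δ306, a replicate block, each replicate left out, and libraries under 10% of WT in Y-linked RNA left out. The members and lists were chosen with earlier results of these data known. Named genes were the members, the label checks, the 5 genes most like each member, and up to 6 genes per list ordered by the number of calls against WT and then by mean absolute change. Some genes that this rule or the marker lists hold are not reported here.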

Additional observations from a re-analysis of the deposited data

Results flagged for a closer look

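In 20 groups of 4 to 6 libraries, 3 held a library far from the others by Dixon's test, where chance marks about 1 in 20 groups. Nr0b1 was 46.8 CPM in Δ93 library 3, against 19.6 to 28.5 in the other Δ93 libraries. Sox8 was 15.1 CPM in Δ93 library 6, against 1.93 to 6.22 in the others. Sox9 was 78.1 CPM in Meis1 KO library 2, against 100.1 to 101.4 in the others.

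The change from WT differed between deletions by edgeR's test of the difference itself. The WT values cancel in that difference. The WT libraries were still part of the fit, through the filter, the scaling and the estimate of the spread. Sox9 differed by 1.57 on the log2 scale between Δ225 and Δ93. Sox8 differed by 2.56 between Δ225 and Δ306 and by 2.69 between Δ225 and Δ93. Nr0b1 differed by −1.86 between Δ225 and Δ306 and by −1.80 between Δ225 and Δ93. The processing notes differ between Δ225 and Δ306.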

How the results depend on the processing

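The members and the 11 comparisons were refitted under each alternative. Of 840 refitted fold changes of the 5 genes, 753 kept their direction and their side of the threshold, 28 lost the call, 16 gained it and 43 turned direction. Of 452 log2 ratios to Sox9, 412 were unchanged in that sense, 16 turned direction and 24 lost the call, all of them fits without 1 replicate of the Dmrt1 and Nr0b1 ratios in Δ225 against Δ93, and the 20 relations were unchanged with the other prior count. The Sox8 call in Δ93 against WT and the Nr0b1 and Sox8 calls between Δ225 and Δ93 held throughout. The cause of the changes was not tested, except that fits without libraries have fewer samples. Sox10 had 3 to 20 counts in 4 libraries, so its level in them is imprecise.

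With DESeq2, the number of genes called was 2707 in Δ306 against WT, 781 in Δ225 against WT, 591 in Δ104 against WT, 456 in Δ225 against Δ104, 389 in Δ104 against Δ306, 167 in Δ93 against Δ306, 546 in Δ93 against Δ104 and 1439 in Meis1 KO against WT. There the log2 values were −2.53 for Sox8 in Δ306 against WT, 0.0133 for Dmrt1 in Δ225 against WT, −1.63 for Sox9 in Δ93 against WT, −1.24 for Nr0b1 in Δ104 against Δ306, −1.84 for Sox8 in Δ93 against Δ104, 1.18 for Nr0b1 in Δ93 against Δ104 and −0.34 for Sox8 in Meis1 KO against WT. With RLE scaling, the log2 values were −2.53 for Sox8 in Δ306 against WT and 0.0143 for Dmrt1 in Δ225 against WT. With no composition factor, the number of genes called was 26 in Δ104 against WT and 4 in Δ104 against Δ306. There the log2 values were 0.0225 for Nr0b1 in Δ104 against WT. With no filter on low counts, the number of genes called was 962 in Δ306 against WT, 31 in Δ104 against WT, 6 in Δ104 against Δ306 and 35 in Δ93 against Δ104. With the replicate number as a block, the number of genes called was 1638 in Δ225 against WT, 470 in Δ104 against WT, 2 in Δ225 against Δ104, 2 in Δ104 against Δ306, 3 in Δ93 against Δ306, 2 in Δ93 against Δ104 and 32 in Meis1 KO against WT. There the log2 values were −0.27 for Sox8 in Δ225 against WT, 2.24 for Sox8 in Δ225 against Δ306, −0.0227 for Dmrt1 in Δ93 against Δ306, −0.11 for Dmrt1 in Δ93 against Δ104 and −0.69 for Sox10 in Meis1 KO against WT. With the 2 groups alone, the number of genes called was 3429 in Δ306 against WT, 1 in Δ225 against WT, 0 in Δ104 against WT, 1945 in Δ225 against Δ306, 1 in Δ225 against Δ104, 4 in Δ104 against Δ306, 8 in Δ93 against Δ306 and 4 in Δ93 against Δ104. There the log2 values were −2.53 for Sox8 in Δ306 against WT, 0.00384 for Dmrt1 in Δ225 against WT and 0.0203 for Nr0b1 in Δ104 against WT. With the first deposited count table, the number of genes called was 3101 in Δ306 against WT. There the log2 values were −2.46 for Sox8 in Δ306 against WT. Without the libraries low in Y-linked RNA, the number of genes called was 6 in Δ306 against WT, 0 in Δ225 against WT, 0 in Δ104 against WT, 100 in Δ225 against Δ306, 0 in Δ225 against Δ104, 0 in Δ104 against Δ306 and 15 in Meis1 KO against WT. There the log2 values were 1.19 for Nr0b1 in Δ306 against WT, −0.0797 for Sox8 in Δ225 against WT, 2.08 for Sox8 in Δ225 against Δ306, −0.13 for Sox9 in Δ104 against Δ306, −0.23 for Sox10 in Δ104 against Δ306, −0.59 for Sox10 in Meis1 KO against WT, −0.25 for the Sox10 ratio in Δ225 against Δ306 and 0.78 for the Dmrt1 ratio in Δ104 against Δ306. Leaving out each replicate in turn gave counts of called genes of 205 to 1310 in Δ306 against WT, 5 to 122 in Δ225 against WT, 1 to 528 in Δ104 against WT, 1486 to 3572 in Δ93 against WT, 887 to 3368 in Δ225 against Δ306, 9 to 557 in Δ225 against Δ104, 0 to 282 in Δ104 against Δ306, 3 to 123 in Δ93 against Δ306, 3 to 791 in Δ93 against Δ104 and 15 to 2204 in Meis1 KO against WT. For Nr0b1, these fits without 1 replicate gave log2 values of 1.12 to 1.25 in Δ306 against WT, −0.11 to 0.0882 in Δ104 against WT, 1.01 to 1.29 in Δ93 against WT, −0.23 to 0.0468 in Δ93 against Δ306 and 1.01 to 1.31 in Δ93 against Δ104. For Sox9, these fits without 1 replicate gave log2 values of −0.18 to 0.0119 in Δ225 against WT, −2.04 to −1.43 in Δ93 against WT, 1.38 to 1.98 in Δ225 against Δ93 and −0.78 to 0.11 in Δ93 against Δ306. For Sox8, these fits without 1 replicate gave log2 values of −0.0458 to 0.11 in Δ225 against WT, 2.18 to 2.96 in Δ225 against Δ306, −0.72 to 0.27 in Δ93 against Δ306, −2.43 to −1.42 in Δ93 against Δ104 and −0.35 to −0.29 in Meis1 KO against WT. For Dmrt1, these fits without 1 replicate gave log2 values of −0.31 to 0.23 in Δ225 against WT, −0.52 to 0.0149 in Δ93 against WT, −0.11 to 0.25 in Δ104 against Δ306, −0.0809 to 0.28 in Δ93 against Δ306, −0.16 to 0.18 in Δ93 against Δ104 and −0.72 to −0.19 in Meis1 KO against WT. For Sox10, these fits without 1 replicate gave log2 values of −3.23 to −2.36 in Δ93 against WT, −0.0378 to 1.12 in Δ104 against Δ306, −1.15 to 0.12 in Δ93 against Δ306 and −0.72 to −0.59 in Meis1 KO against WT. For the Sox8 ratio to Sox9, these fits without 1 replicate gave log2 values of −0.0329 to 0.28 in Δ225 against WT. For the Dmrt1 ratio to Sox9, these fits without 1 replicate gave log2 values of −0.24 to 0.36 in Δ225 against WT, −0.0139 to 1.403 in Δ104 against WT, −1.27 to 0.14 in Δ225 against Δ104, −1.88 to −1.403 in Δ225 against Δ93, −1.39 to 0.14 in Δ104 against Δ306, −0.15 to 1.21 in Δ93 against Δ306 and −0.51 to 0.082 in Meis1 KO against WT. For the Sox10 ratio to Sox9, these fits without 1 replicate gave log2 values of −0.1958 to 0.69 in Δ225 against Δ306, −0.99 to 0.36 in Δ104 against Δ306 and −1.07 to 0.29 in Δ93 against Δ104. For the Nr0b1 ratio to Sox9, these fits without 1 replicate gave log2 values of −4.16 to −3.58 in Δ225 against Δ93 and −0.0733 to 1.13 in Δ93 against Δ306.

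The labels do not say that replicate numbers pair the libraries. Of same-numbered pairs, 11 of 35 had correlated deviations over 0.1 (−0.467 to 0.539), and 2 of 3 in the Meis1 table (−0.114 to 0.481). Pairs with different numbers were not measured for reference, so these values cannot show whether the numbers pair the libraries. The block fit therefore stands only here. With the block, the Sox8 call in Δ225 against Δ306 (adjusted p 0.0511) and the Sox10 call in Meis1 KO against WT (adjusted p 0.142) were lost, and no other call of a member was. Without composition factors the share of calls that were higher was 61.8% in Δ306 against WT (46.1% with them), 34.2% in Δ225 against Δ306 (49% with them) and 4% in Δ93 against Δ306 (16.7% with them), and the median of all genes was 0.17 in Δ306 against WT. With them, the counts of called genes were 1474, 48, 14 and 3229 in Δ306, Δ225, Δ104 and Δ93 against WT, 3030, 148 and 4767 in Δ225 against Δ306, Δ104 and Δ93, 15 in Δ104 against Δ306, 18 and 12 in Δ93 against Δ306 and Δ104, and 303 in Meis1 KO against WT.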
